A study of Drosophila melanogaster with 14 samples.

Results

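The Greek-letter trypsin cluster of Drosophila melanogaster is a row of 10 serine protease genes named alphaTry, betaTry, gammaTry, deltaTry, epsilonTry, zetaTry, etaTry, thetaTry, iotaTry and kappaTry. The genes were taken by symbol from a table of 17869 genes, and all 10 were found. The family was chosen from earlier results of the same libraries, in which its levels differed between genotypes. The genotype differences given here for its members are therefore descriptions, with standard errors but with no p-values. Of the 10 genes, 9 passed a filter on low values (a log2 CPM above 0 in at least 3 libraries) that 12586 genes in all passed. The gene that did not pass was gammaTry. CPM is the usual read rate per library after scaling for library size.

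Trypsins are digestive serine proteases that cut proteins after lysine or arginine. In the fly they are made by midgut epithelial cells, secreted into the gut lumen as inactive precursors and activated by cleavage. Trypsins work beside the chymotrypsin-like Jonah proteases, and beside amylases, maltases and lipases that handle starch, sugars and fat.

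RNA was sequenced from whole third-instar larvae of 4 genotypes: w1118 as control (4 libraries), Sep2[2] (3 libraries), Sep5[2] (3 libraries) and the double homozygote Sep2[2];Sep5[2] (4 libraries). Septins are filament-forming GTP-binding proteins, and the study's title asks how they bear on microtubules and on synaptic function at the neuromuscular junction. No treatment was applied, rearing was at 25 °C, each mutant genotype is represented by 1 allele combination, and age within the third instar is not given for any group. The labels do not say whether replicate libraries stand for different animals or pools, so the spread behind each p-value may be partly technical. The sample labels name larvae while the protocol speaks of adult flies. The 8 adult-stage marker genes summed to between 2.71 and 5.90 CPM in all 14 libraries, whereas 9 larval salivary gland genes summed to between 1483 and 21293 CPM.

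Reads per library ranged from 8858393 to 47203028. Mitochondrial mt:lrRNA took 4.74% to 9.83% of reads in controls and 10.6% to 24.9% in double mutants, a difference in library make-up that moved with genotype. Septin5 had 90 to 214 reads in the control libraries, 0 to 1 in the Sep5 libraries and 3 to 15 in the double mutants. Septin2 lay at 46.6 to 67.2 CPM in controls, 21.7 to 29.4 CPM in the Sep2 libraries and 0.270 to 9.11 CPM in double mutants, where replicate 4 was the highest. The Sep2 libraries did not overlap the controls for Septin2, but the difference of -1.09 log2 (SE 0.76) did not pass the threshold (limma, adjusted p = 0.410). That fit shares 1 estimate of the spread over the 4 genotypes. The log2 SD of Septin2 was 2.05 in double mutants, against 0.25 in controls and 0.22 in the Sep2 mutant. The sources used here do not say which exons each allele removes.

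In the BDGP6 (dm6) assembly the family spans 19741 bp of chromosome arm 2R, from position 11337797 to 11357537. The order along the arm is kappaTry, zetaTry, etaTry, thetaTry, alphaTry, epsilonTry, betaTry, gammaTry, deltaTry and iotaTry. On the minus strand lie 7 members, and betaTry, deltaTry and iotaTry lie on the plus strand. Each of the 10 genes is annotated as a single exonic block, with exonic lengths between 810 and 1071 bp. Septin5 lies on the same arm at 7960133 to 7961921, 3.38 Mb away. The genes gammaTry and deltaTry and 2 unnamed neighbours, CG30031 and CG30025, are known as close copies of one another (their identity was not computed here), so the division of reads among these 4 genes is uncertain.

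Summed over the 10 genes, trypsin RNA in the 4 control libraries was 1660, 1116, 1802 and 1121 CPM. The 3 Sep2 libraries were higher, at 2659, 2321 and 2995 CPM. The 3 Sep5 libraries held 613, 398 and 442 CPM. The 4 double mutant libraries held 606, 480, 789 and 684 CPM. The Sep2 libraries all lay above the highest control and the Sep5 and double mutant libraries all lay below the lowest, while Sep5 and double mutant overlapped. The summed level was 1.90-fold higher in the Sep2 mutant than in control, 2.92-fold lower in the Sep5 mutant and 2.21-fold lower in the double mutant. Beside the higher Sep2 sum, 9 larval salivary gland genes summed to 18080 to 21293 CPM in the Sep2 mutant against 4513 to 17653 CPM in controls, and 6 fat body genes to 33784 to 43818 against 17713 to 30604 CPM. Of these genes, 1 of 9 and 0 of 6 passed the threshold in that comparison (limma), beside 4.50% of all genes. The fat body sums were also 30234.5 to 54578 CPM in the Sep5 mutant and 30389 to 54956 CPM in the double mutant. The salivary gland sums there were 3809 to 14397 CPM and 1483 to 6872 CPM. The part of salivary gland and fat body RNA in the trypsin difference was not tested. In whole larvae, fewer cells of a type and less RNA per cell cannot be told apart.

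The similar sums of Sep5 and double mutant larvae were made up of different genes. In controls, alphaTry, betaTry and epsilonTry together made up 90.8% ± 3.41 (SD, n = 4) of the family's CPM. In the Sep2 mutant the same 3 genes made up 92.5% ± 1.61 (SD, n = 3). They made up 36.6% ± 13.3 (SD, n = 3) in the Sep5 mutant and 46.1% ± 7.61 (SD, n = 4) in the double mutant. What remained in the Sep5 libraries was chiefly alphaTry, at 33.0% ± 13.6 (SD, n = 3), and thetaTry, at 32.1% ± 3.46 (SD, n = 3). The double mutant had no such leading pair: betaTry held 22.2% ± 6.82, zetaTry 15.6% ± 1.25 and epsilonTry 12.5% ± 1.86 (SD, n = 4).

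**Figure D1:**
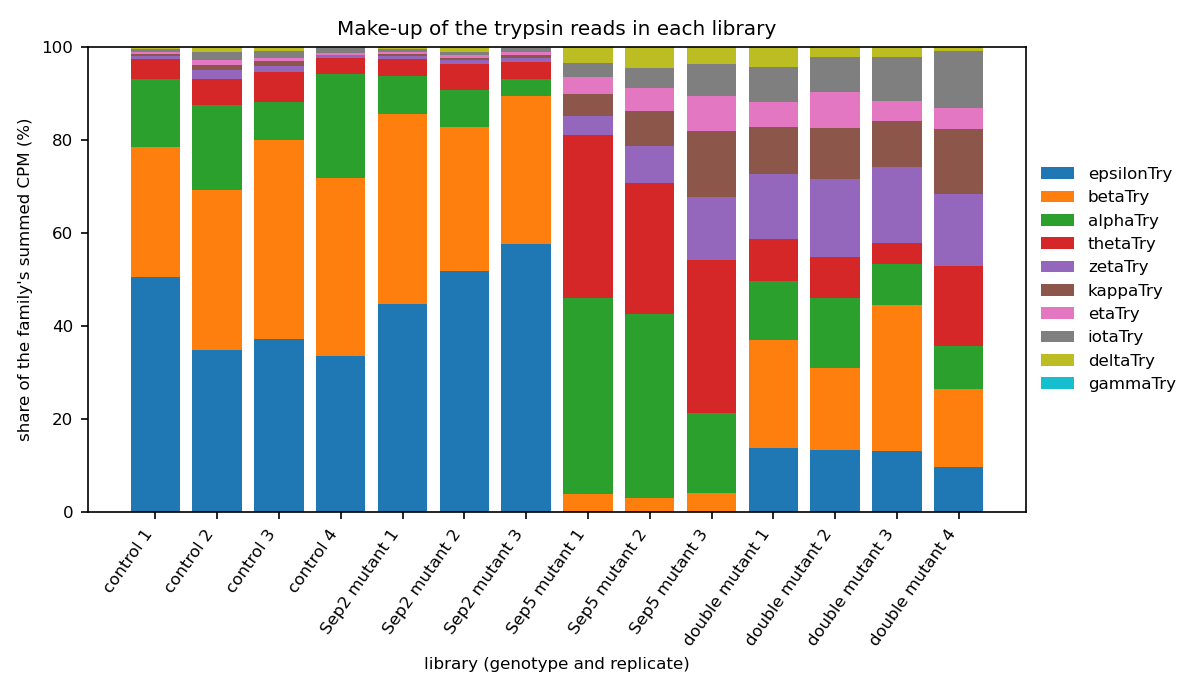
Share of the family's summed CPM (%, y axis) held by each of the 10 trypsin genes in each of the 14 libraries (x axis, genotype and replicate). The alphaTry, betaTry and epsilonTry segments fill 87.5% or more of every control bar, and the epsilonTry segment is not visible in the 3 Sep5 bars.

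The gene epsilonTry showed the widest range of any member. In controls it stood at 838, 389, 669 and 375 CPM, the most abundant member per kilobase of exon. It stood at 1190, 1201 and 1726 CPM in the Sep2 mutant. In the Sep5 mutant it was nearly undetected, at 0.545, 0.117 and 0.224 CPM, which correspond to 8, 6 and 3 reads. Those 17 reads compare with 72930 in controls, a rate of 0.0370% of the control rate (exact 95% interval 0.0215% to 0.0592%, counting error only). In the double mutant, which also carries Sep5[2], epsilonTry stood at 83.3, 63.9, 103 and 66.4 CPM. Thus the 4 genotypes did not overlap: Sep2 lay highest, then control, then double mutant, with Sep5 far below the rest.

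On the log2 scale, epsilonTry in the Sep5 mutant differed from control by -10.65 (SE 0.36), which ranked 1 by size among the 12586 genes fitted in that comparison. The double mutant differed from control by -2.78 (SE 0.34), a 6.87-fold lower level. The double mutant exceeded the Sep5 mutant by 7.87, and that difference ranked 2 by size among all genes. The size of the Sep5 difference depends on how near-zero values are handled, and was -8.71 with 1 CPM added and -11.20 with voom on the recovered reads. By each of these routes epsilonTry was lowest in the Sep5 libraries.

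The neighbour of epsilonTry on the arm, betaTry, followed the same order with a smaller range. Its controls stood at 463, 384, 771 and 430 CPM. Its Sep2 libraries stood at 1086, 720 and 950 CPM, overlapping the controls as groups. The Sep2 library was higher in 3 of 3 same-numbered pairs, a pairing that the labels do not state. In the Sep5 mutant betaTry was in the range of a minor member, at 23, 11.5 and 17.2 CPM. The double mutant libraries stood at 141, 84.0, 248 and 114 CPM, between the Sep5 libraries and the controls without overlap with either. The difference from control was -4.89 (SE 0.35) in the Sep5 mutant, a 29.6-fold lower level, and -1.86 (SE 0.32) in the double mutant, a 3.64-fold lower level.

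The third abundant member, alphaTry, lies on the other side of epsilonTry and did not share its near loss in the Sep5 libraries. It stood at 244, 204, 148 and 251 CPM in controls. The Sep2 libraries had 214, 183 and 112 CPM, lower than the same-numbered control in 3 of 3 pairs. The Sep5 libraries had 258, 158 and 76.8 CPM, and both single mutants overlapped the controls. Double mutant alphaTry was low and even, at 76.5, 72.8, 68.8 and 63.3 CPM, below every library of the other genotypes. The double mutant difference from control was -1.56 (SE 0.31), a 2.95-fold lower level, against -0.50 (SE 0.34) in the Sep5 mutant.

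**Figure D2:**
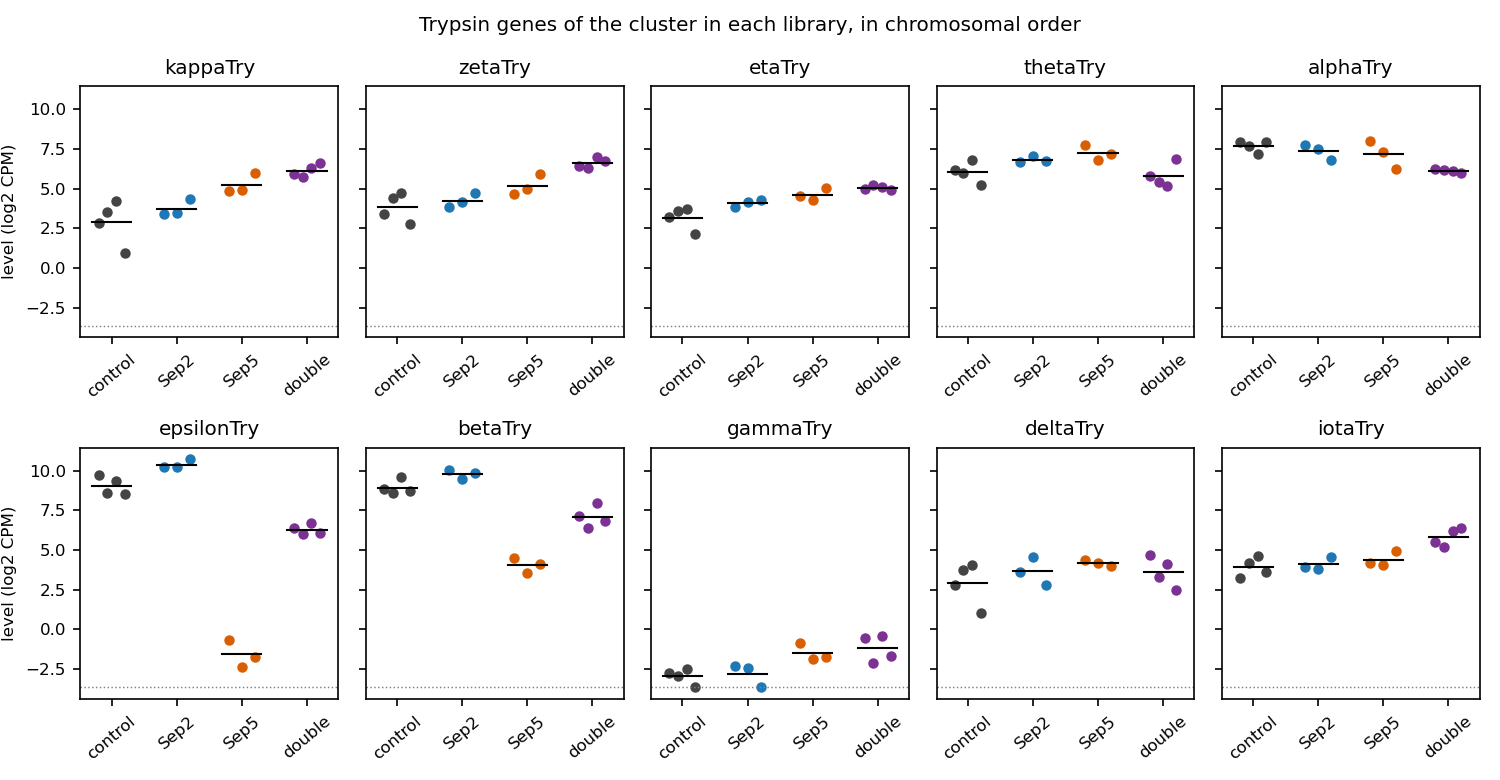
Level of each trypsin gene (log2 CPM, y axis) in each library (points) by genotype (x axis), with the genotype mean as a black line and the lowest value the table can hold as a dotted line. The epsilonTry and betaTry panels show the Sep5 libraries far below the others, and the kappaTry, zetaTry, etaTry and iotaTry panels show the double mutant libraries above the controls.

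At the other end of the cluster, kappaTry, zetaTry and etaTry were minor members in controls and stood higher in double mutants. The outermost of them, kappaTry, had 7.09, 11.4, 18.2 and 1.87 CPM in controls. It had 10.6, 10.9 and 20.3 CPM in the Sep2 mutant and 28.3, 30.3 and 63.0 CPM in the Sep5 mutant. Double mutant kappaTry stood at 61.1, 52.7, 78.3 and 96.0 CPM. The Sep5 and double mutant libraries all lay above the highest control. The difference from control was 3.26 (SE 0.53) in the double mutant, a 9.55-fold higher level, and 2.36 (SE 0.57) in the Sep5 mutant, a 5.15-fold higher level. The lowest control value, in replicate 4, pulls this gene's control mean down, and without single libraries the double mutant difference ranged from 2.62 to 3.69.

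Next on the arm, zetaTry had 10.5, 21.0, 25.8 and 6.71 CPM in controls. Its double mutant libraries had 84.3, 80.4, 129 and 106 CPM, above every library of the other genotypes. Its Sep2 libraries had 14.1, 17.6 and 26.6 CPM and its Sep5 libraries 24.9, 31.4 and 60.0 CPM, both overlapping the controls. The double mutant difference from control was 2.80 (SE 0.39), a 6.97-fold higher level, and the Sep5 difference was 1.36 (SE 0.42).

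Further along, etaTry varied little among the double mutants, at 32.0, 36.8, 33.6 and 30.4 CPM. Its controls stood at 9.13, 12.2, 13.0 and 4.36 CPM. Its Sep2 libraries stood at 14.6, 17.8 and 19.1 CPM, just above the highest control, and its Sep5 libraries at 23.4, 19.6 and 32.9 CPM. Control therefore lay below Sep2 and Sep2 below Sep5 with no overlap, while Sep5 and double mutant overlapped. The differences from control were 0.93 (SE 0.31), 1.46 (SE 0.31) and 1.88 (SE 0.28) in the Sep2, Sep5 and double mutants.

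At the far end of the cluster, iotaTry had 9.42, 18.0, 25.0 and 12.2 CPM in controls. Double mutant libraries had iotaTry at 46.3, 36.4, 74.4 and 83.8 CPM, above every other library. The Sep2 libraries had 15, 14 and 24 CPM and the Sep5 libraries 17.8, 16.7 and 30.6 CPM, both overlapping the controls. The double mutant difference was 1.91 (SE 0.34), a 3.76-fold higher level, against 0.47 (SE 0.37) in the Sep5 mutant. For iotaTry the double mutant alone stood clear of the controls, whereas for etaTry and kappaTry the Sep5 libraries did so too.

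Between the 2 groups on the arm, thetaTry had 71.0, 63.9, 114 and 37.9 CPM in controls. The Sep2 libraries held 102, 133 and 109 CPM and the Sep5 libraries 216, 113 and 145 CPM. The double mutants held 55.4, 42.4, 35.9 and 118 CPM, with replicate 4 apart from the other three. All mutant groups overlapped the controls for thetaTry. The difference from control was 1.19 (SE 0.40) in the Sep5 mutant and -0.25 (SE 0.37) in the double mutant, and the latter ranged from -0.60 to 0.01 when single libraries were left out.

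The last pair, deltaTry and gammaTry, belong to the near-identical copies. In controls deltaTry had 6.89, 13.1, 16.5 and 1.94 CPM, and the 3 mutant groups overlapped that range, with differences of 0.79 (SE 0.65), 1.31 (SE 0.65) and 0.75 (SE 0.60) in the Sep2, Sep5 and double mutants. Reads for gammaTry were at the limit of detection: 3, 2, 2 and 0 in controls, and 2, 3 and 0 in the Sep2 mutant. The Sep5 libraries had 7, 10 and 3 gammaTry reads, and the double mutants 18, 4, 5 and 4. Of these 2 genes, gammaTry was not fitted, and deltaTry did not pass the threshold in any of the 6 comparisons.

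**Figure D3:**
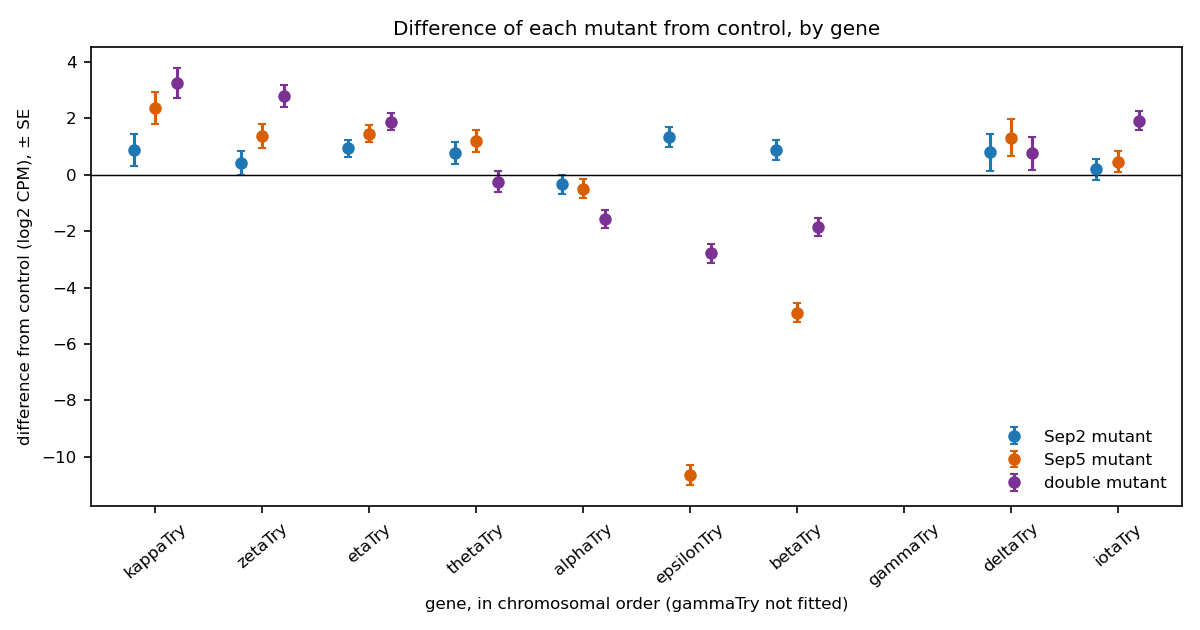
Difference of each mutant genotype from control (log2 CPM, y axis; bars are ± 1 SE of the limma fit) for the 9 fitted trypsin genes, in chromosomal order (x axis). The lowest value is epsilonTry at -10.65 in the Sep5 mutant. Values below 0 also stand at betaTry in the Sep5 and double mutants, epsilonTry in the double mutant, alphaTry in all 3 mutants and thetaTry in the double mutant, and the largest positive values stand at kappaTry and zetaTry in the double mutant.

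Counted against the fit over all genes (limma, Benjamini-Hochberg adjusted p under 0.05), 7 of the 9 fitted members passed in the double mutant against control, where 45.0% of all fitted genes passed. The 4 higher members were zetaTry, etaTry, iotaTry and kappaTry, beside 22.5% of all genes higher, and the 3 lower ones were alphaTry, betaTry and epsilonTry, beside 22.5% lower. In each of these 7 genes the double mutant and control libraries did not overlap, which held for 39.9% of all genes. In the Sep5 mutant against control 4 of 9 passed, beside 5.13% of all genes. The higher ones were etaTry and kappaTry, beside 3.89% of all genes higher, and the lower ones betaTry and epsilonTry, beside 1.24% lower. The same 4 did not overlap between the groups, beside 15.2% of all genes. Without Sep5 replicate 3, or with only the libraries of these 2 groups in the fit, 2 of them passed, betaTry and epsilonTry. Nothing is read from these counts, since the members were chosen with these contrasts known.

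In the Sep2 mutant against control 0 of 9 members passed (limma), beside 4.50% of all genes, and 3 of 9 had an unadjusted p under 0.05, beside 21.6% of all genes. Only epsilonTry and etaTry of the fitted members did not overlap between these groups, which held for 20.9% of all genes. With the replicate number as a block over all 14 libraries, 1 member passed, epsilonTry, and the same single gene passed with voom. The labels give replicate numbers but do not state a pairing of libraries. The count was also 1, epsilonTry, when control replicate 1, Sep5 replicate 1 or Sep5 replicate 2 was left out. The epsilonTry difference itself was 1.34 (SE 0.36), a 2.53-fold higher level.

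Between mutants, 7 of 9 members passed in the double mutant against the Sep2 mutant, beside 28.9% of all genes. These were the 7 that passed against control, with alphaTry, betaTry and epsilonTry lower (12.9% of all genes) and the other 4 higher (16.0%). The double mutant against the Sep5 mutant gave 5 of 9, beside 8.91% of all genes, with betaTry, epsilonTry, zetaTry and iotaTry higher (5.16% of all genes) and thetaTry lower (3.75%). That count was 2 without double mutant replicate 3, Sep5 replicate 1 or Sep5 replicate 2, and 3 without double mutant replicate 1, 2 or 4 or Sep2 replicate 1. The Sep2 mutant against the Sep5 mutant gave 2 of 9, betaTry and epsilonTry, beside 2.43% of all genes in either direction and 1.13% higher, as both were. All of these comparisons share libraries with one another and with those against control.

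Per kilobase of exon, which allows levels to be compared between genes, the order of the members changed between genotypes. In controls the order ran from epsilonTry at 684 CPM per kb through betaTry at 478, alphaTry at 246 and thetaTry at 68.5 to iotaTry at 19.8. The ranges of epsilonTry and betaTry overlapped, betaTry, alphaTry and thetaTry each stood clear of the next, and iotaTry overlapped zetaTry. In the Sep5 mutant alphaTry led at 191 CPM per kb, followed by thetaTry at 151 and kappaTry at 43.2, and epsilonTry was last at 0.356, overlapping gammaTry at 0.368. Double mutants had betaTry in the lead at 137 CPM per kb, followed by zetaTry at 105, epsilonTry at 95.5 and alphaTry at 81.8. In that genotype each of the first 7 members, down to thetaTry at 60.1, overlapped the next in order. Only etaTry at 36.5 and deltaTry at 17.9 stood clear of the member after them.

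Within genotypes, after the genotype mean was subtracted from each library, some members still varied together. Among kappaTry, zetaTry, etaTry and iotaTry the correlation of deviations ranged from 0.47 to 0.93 (Pearson, 14 libraries, 6 pairs, median 0.83). Over all 36 pairs of the 9 fitted members it ranged from -0.80 to 0.93, with a median of 0.30, and the 6 pairs are singled out after their values were seen. These deviations are free of the genotype means, and they share library depth and scaling. The widest deviations of these 4 genes were in controls, with kappaTry at 1.31 in replicate 3 and -1.92 in replicate 4. Not every genotype showed the shared variation for etaTry. In double mutant replicates 1 to 4 etaTry deviated by -0.05, 0.15, 0.02 and -0.13, and kappaTry by -0.20, -0.41, 0.16 and 0.45. For betaTry and epsilonTry the correlation of deviations was 0.69. In the opposite direction, alphaTry deviated against zetaTry with a correlation of -0.80 and against iotaTry with -0.71. Libraries of one genotype with more zetaTry and iotaTry therefore tended to hold less alphaTry. No p-value is attached to these correlations.

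**Figure D4:**
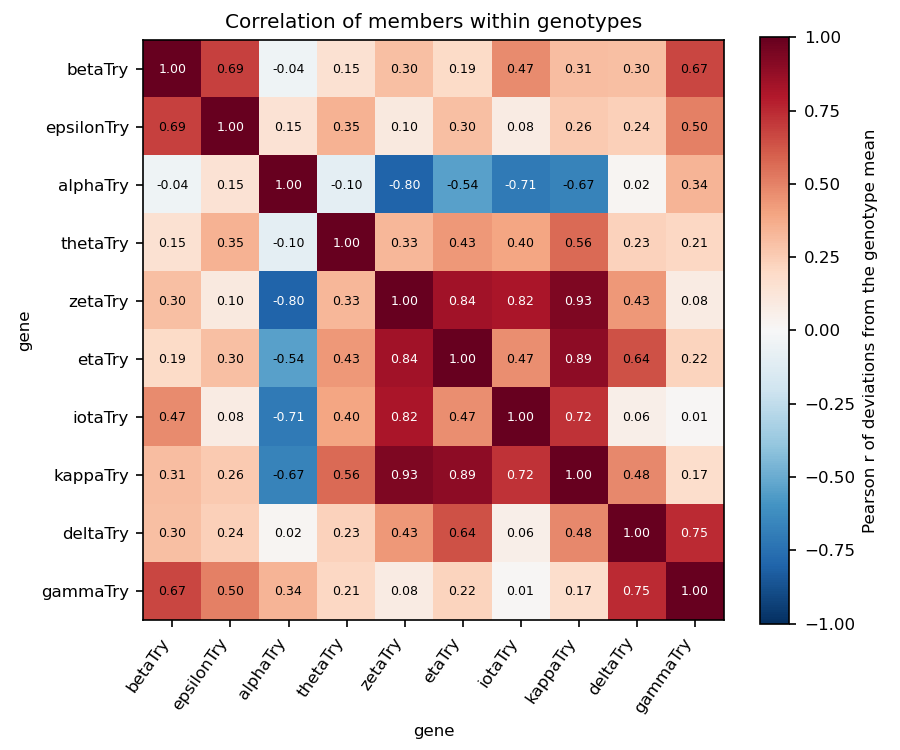
Pearson correlation between members (both axes: gene) of their deviations from the genotype mean over 14 libraries, with the colour scale from -1 to 1. The block of zetaTry, etaTry, iotaTry and kappaTry holds values of 0.47 to 0.93, and alphaTry against zetaTry stands at -0.80.

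Some of the same deviations moved with genes that report other states of the larva. The values given here are a few of those computed over all members and lists. Some of the others were weak, and some were as strong as those given. Among the strong ones were kappaTry with muscle genes (0.81), iotaTry with carbohydrate-digestion genes (0.73) and deltaTry with activin pathway genes (-0.69). The summed level of 16 ecdysone-response genes, which follow the steroid pulses that time moulting and wandering, correlated in its deviations with alphaTry at 0.68 and with zetaTry at -0.80. With betaTry and epsilonTry the ecdysone-response correlation was -0.20 and -0.10. The summed level of 9 muscle genes correlated with zetaTry at 0.73 and with alphaTry at -0.69. Reads per library correlated with the deviations of betaTry at -0.80. Between genotypes, the summed ecdysone-response level was 3414 to 5865 CPM in controls, 3066 to 4518 CPM in the Sep2 mutant, 1848 to 3875 CPM in the Sep5 mutant and 1010 to 1290 CPM in the double mutant. Of its 16 fitted genes 13 were lower and 1 higher in the double mutant against control, beside 22.5% of all genes in each direction. Among the lower was br, an early ecdysone-induced regulator, with a log2 difference of -2.54 (limma, adjusted p = 1.30e-05). Muscle genes summed to 7798 to 22870 CPM in controls, 11800 to 26565 CPM in the Sep2 mutant, 23960 to 49154 CPM in the Sep5 mutant and 30547 to 58865 CPM in double mutants. In the double mutant 7 of 9 passed the threshold against control, all of these higher (limma), beside 22.5% of all genes higher. The part of ecdysone response, muscle RNA, mt:lrRNA share or depth in the trypsin differences was not tested.

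On the arm the neighbourhood of the cluster was mixed. The closest gene outside the outermost members was lambdaTry, a further trypsin gene that starts at 11336840 on the plus strand next to kappaTry. In controls lambdaTry had 34, 143, 77 and 7 reads. It had 23, 72 and 108 reads in the Sep2 mutant, 0 in each Sep5 library, and 34, 17, 26 and 175 in the double mutant. Its control level was at least 54.9-fold higher than a floor of 3 reads over the Sep5 group, and its double mutant level at least 83.7-fold higher. Without Sep5 replicate 2, the deepest of these libraries, the bounds were 19.4-fold and 29.5-fold. The control bound was 35.3-fold without control replicate 2, and the double mutant bound was 32.8-fold without double mutant replicate 4. The limma difference between Sep5 mutant and control passed the threshold (adjusted p = 0.0153), with a range over alternatives from 0.00543 to 0.183. It did not pass without Sep5 replicate 1 (0.0584) or replicate 3 (0.0688), with no filter on low values (0.0613), with voom (0.0636) or with 1 CPM added (0.183). So lambdaTry and epsilonTry, at opposite sides of kappaTry, zetaTry, etaTry, thetaTry and alphaTry, were both near zero in the Sep5 libraries and present in the double mutants.

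The copy CG30031 behaved unlike all others: it had 2997 reads in Sep5 replicate 2 and between 1 and 14 in each of the other 13 libraries. Summed over the 4 near-identical copies, the Sep5 libraries had 38.5 CPM ± 33.1 (SD, n = 3), against 9.82 ± 6.61 (SD, n = 4) in controls, 14.9 ± 8.66 (SD, n = 3) in the Sep2 mutant and 15.4 ± 8.88 (SD, n = 4) in the double mutant. Without Sep5 replicate 2 the Sep5 mean was 19.5 CPM. Around the cluster, the fitted genes sha, CG13202, CG12384, ix, san and CG13204 did not pass the threshold in any mutant against control (limma). Their largest difference from control was 0.69 for CG12384 in the Sep2 mutant (limma, adjusted p = 0.0614). In the double mutant against the Sep2 mutant, where 28.9% of all genes passed, sha was higher by 1.13 (limma, adjusted p = 0.0207). In that comparison ix was lower at -0.76 (limma, adjusted p = 0.0196). Among these genes no other difference between mutants passed.

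Other digestive gene groups were read beside the trypsins, from lists chosen with earlier results of these data known. In the double mutant 10 of 20 fitted Jonah and Ser proteases were higher and 3 lower, with a median difference of 0.88 against -0.01 over all genes, of which 22.5% were higher and 22.5% lower. This list also holds the trypsin genes lambdaTry and Try29F, which are outside the family of 10. Jon99Cii, a chymotrypsin-like protease, rose by 2.53 (SE 0.27; limma, adjusted p = 2.01e-05). Jon99Fii was among the 3 that fell, at -1.69 (SE 0.24; limma, adjusted p = 0.000164). Against the same shares of all genes, carbohydrate-digesting enzymes gave 15 higher and 1 lower of 19, with a median of 1.45. Among them the maltase Mal-A4 rose by 4.55 (SE 0.54; limma, adjusted p = 3.67e-05) and the amylase Amy-p by 2.07 (SE 0.27; limma, adjusted p = 7.68e-05). All 7 fitted lipid-digestion genes were higher, with a median of 2.07, among them the lipase mag, by 3.12 (SE 0.36; limma, adjusted p = 3.07e-05). The lower alphaTry, betaTry and epsilonTry levels of the double mutant thus stood beside higher levels of 32 of the 46 fitted genes in these 3 lists.

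The single mutants showed smaller medians in these lists. The Jonah and Ser proteases had a median difference of 0.25 in the Sep2 mutant and 0.64 in the Sep5 mutant. Carbohydrate enzymes had medians of 0.97 and 0.60, and lipid genes 0.65 and 1.33, in the same order. Amyrel, an amylase relative, was named because its log2 levels had the highest Pearson correlation with those of epsilonTry (0.86). Its difference from control was -1.69 in the Sep5 mutant and 0.11 in the double mutant, given as a description. Summed Jonah and Ser RNA was 9462 to 17660 CPM in controls and 14959 to 26525 CPM in the Sep5 mutant. The low trypsin sum of those libraries was thus not matched by a low sum over this list.

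**Figure D5:**
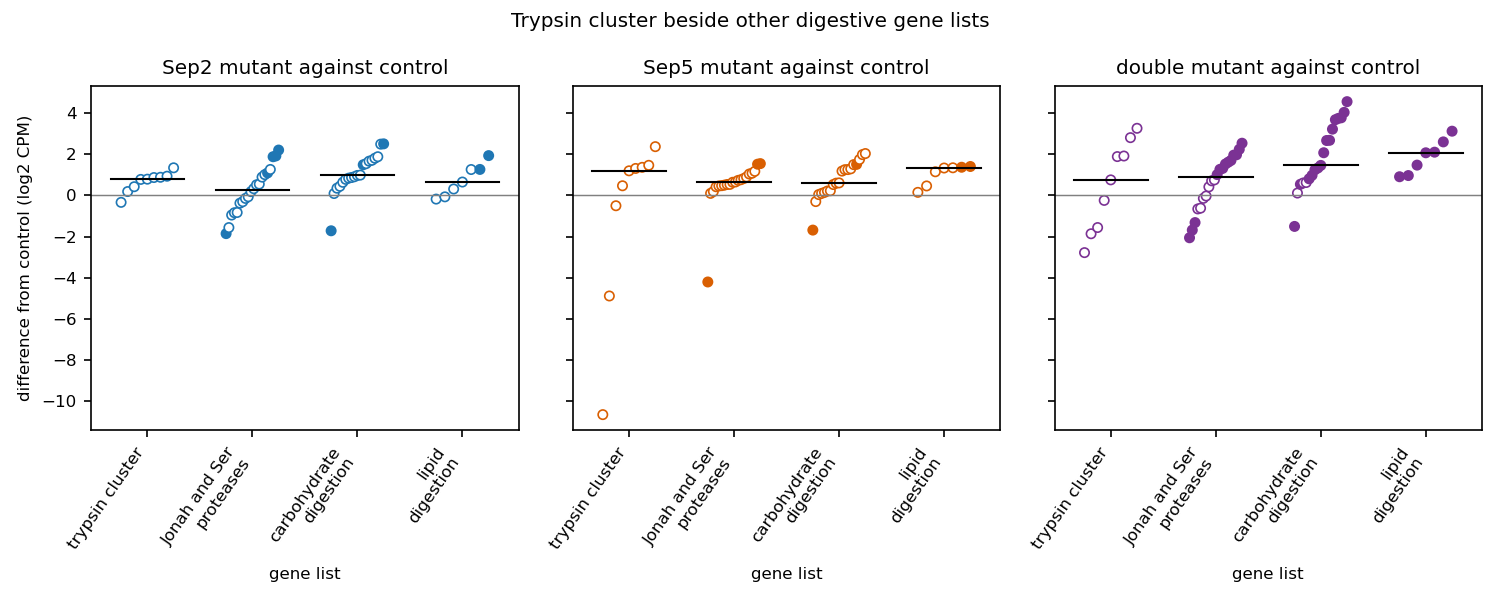
Difference from control (log2 CPM, y axis) of each fitted gene in 4 lists (x axis), 1 panel per mutant; filled points passed an adjusted p of 0.05 (not marked for the trypsin cluster) and black lines are medians. In the double mutant panel the lipid list has all 7 genes above 0, while the trypsin cluster spans from -2.78 to 3.26.

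Genes that regulate or mark the gut were also counted in the double mutant. Of 12 fitted genes in a list of midgut regulators 8 were higher and 2 lower, beside 22.5% of all genes in each direction. The list also holds Myo61F, a myosin gene and not a regulator of transcription. Among the higher was sug, a sugar-responsive repressor, by 2.2 (SE 0.38; limma, adjusted p = 0.000577), and nub was lower at -1.13 (SE 0.26; limma, adjusted p = 0.00342). Without control replicate 4 the higher count was 5, and with library totals left unscaled it was 2. The 8 genes of the activin pathway, which in the fly gut has been tied to sugar repression of digestive enzymes, gave 0 past the threshold in each of the 3 mutants against control (limma), and 0 by voom. Of all genes, 45.0% passed in the double mutant, 4.50% in the Sep2 mutant and 5.13% in the Sep5 mutant. With an unadjusted p under 0.05 the activin count was 0 in the double mutant, beside 52.6% of all genes. It was 1 in each single mutant, beside 21.6% of all genes in Sep2 and 20.9% in Sep5. Of 4 fitted peritrophic matrix genes, Peritrophin-A was higher by 1.43 (SE 0.32; limma, adjusted p = 0.00302) and the mucin gene Muc68D lower at -2.65 (SE 0.63; limma, adjusted p = 0.00404).

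The genes whose log2 levels most resembled the summed trypsin level over the 14 libraries, among 9999 candidates, were Alp7 (Pearson 0.92), CR33013 (0.91), Atac1 (0.89), Mur29B (0.89) and Adk3 (0.84). Alp7, an alkaline phosphatase gene, was low in both genotypes that carry Sep5[2], with 10 reads in all over the Sep5 libraries and 34 over the double mutants, against 7930 in controls. That differs from epsilonTry, which was near zero in the Sep5 libraries alone. When genotype means were removed, other genes led the list, with Atac3 (0.90) and hll (0.83) first, and Alp7 stood at 0.32. The likeness of Alp7 to the summed trypsins therefore rested mainly on the genotype means.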

How the data were processed

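RNA-seq libraries of whole third-instar larvae were analysed from 1 deposited table of log2 CPM values for 17869 genes in 14 libraries. Per the submitters' processing notes and design text, the authors used FastQC 0.11.9, cutadapt 3.5, STAR 2.7.11b and edgeR 3.40 with builds BDGP6 and dm6, TMM scaling and quasi-likelihood tests. The read counter, its strand setting and its handling of reads that match several genes are not given in the sources used here. Such handling could move reads between near-identical trypsin copies.

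The deposited log2 values have a floor of -3.65, which is 0.0797 CPM, and whole reads could be recovered from them: 100% of 212109 values above the floor were whole within 0.01 reads. CPM values here are recovered reads times the CPM worth of 1 read in that library. Levels per kilobase used exonic lengths from Ensembl release 115 of BDGP6. The main fit was limma 3.58.1 in R 4.3.3 on the deposited log2 values, with genotype as the factor over all 14 libraries, trended and robust variances, and Benjamini-Hochberg adjustment over 12586 genes in each of 6 comparisons. The 9 fitted members and all lists were fitted with the whole table. Exact Poisson or binomial 95% intervals cover counting error only.

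The members and gene lists were chosen with earlier results of these data known. Named genes of each list were the 4 with the smallest adjusted p in the double mutant against control. Also named were genes within 10 kb of the cluster, apart from Gr47b and tRNA:SeC-TCA-1-1, which did not pass the filter on low values. The 5 genes most like the summed family by Pearson correlation of levels were named. By deviations from genotype means only the highest, Atac3 and hll, were named. Amyrel was named as the gene with the highest Pearson correlation of log2 levels (0.86) with epsilonTry, a target chosen after its values were seen. By Spearman correlation Mur29B led at 0.91, with Amyrel at 0.63, and by deviations from genotype means HisRS led at 0.90. Same-numbered control and Sep2 libraries deviated together in all 3 pairs (correlations 0.305, 0.452 and 0.166), so their block value is printed beside that result. For the other group pairs this did not hold in every pair. Alternatives were 25 settings of filter, added CPM, scaling, variance model, library set, block and left-out libraries. The lambdaTry bounds and the sum over the near-identical copies were also computed without each library in turn, an alternative chosen after seeing the data.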

Additional observations from a re-analysis of the deposited data

How the results depend on the processing

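Of 1350 member differences recomputed under 25 alternatives, 1343 moved by less than 1 SD between replicates, 7 moved more (6 of epsilonTry and 1 of etaTry), and 0 of those that passed the threshold changed sign. Differences near 0 did change sign in single settings for thetaTry, deltaTry, alphaTry and iotaTry. In the double mutant against control the same 7 members passed in each of the 25 alternatives, and gammaTry was an eighth without the filter.

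Without scaling factors the median of all genes lay at -0.47 log2 in the double mutant against control, -0.48 against the Sep2 mutant, -0.29 against the Sep5 mutant, and -0.20 in the Sep5 mutant against control. The share of passing genes that were higher was then 20.2% instead of 50.1%, 17.3% instead of 55.4%, 21.5% instead of 57.9%, and 55.5% instead of 75.9%, in the same order. No fitted member changed sign in this setting or with mt:lrRNA left out. The summed family difference was then -1.61 against control and -2.48 against the Sep2 mutant, and 5881 genes passed in the latter. With mt:lrRNA left out of the totals the median lay at -0.30 in the double mutant against control.

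Members past the threshold in the Sep2 mutant against control numbered 1 with 1 CPM added, with voom, with the replicate block and in a fit on these 7 libraries alone. In the Sep5 mutant against control they numbered 2 in a fit on those 2 groups, where 350 genes passed in all. In the double mutant against the Sep5 mutant they numbered 2 without the filter, and 631 genes passed in a fit on those 2 groups. When the double mutant was represented by replicates 1 and 2, which have the lowest Septin5 levels of that group, 3 members passed against each single mutant, and 1756 and 405 genes against Sep2 and Sep5. In the Sep2 mutant against the Sep5 mutant 200 genes passed with a stricter filter and 187 in a fit on those 2 groups. The cause of these shifts was not tested.

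With 1 library left out, passing genes ranged from 312 to 617 in the Sep2 mutant against control, from 238 to 1373 in the Sep5 mutant against control (1373 without Sep5 replicate 2), from 2017 to 3793 in the double mutant against Sep2, from 406 to 1195 against Sep5, and from 155 to 342 in Sep2 against Sep5. Passing members ranged from 0 to 1 in Sep2 and from 2 to 6 in Sep5 against control, from 5 to 8 in the double mutant against Sep2 and from 2 to 5 against Sep5. The replicate block changed no other member count by over 1.5 times. Low reads limit gammaTry, and epsilonTry and lambdaTry in the Sep5 libraries.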
